A study of Mus musculus with 8 samples.

Results

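The genes described here encode the nuclear receptors of the mouse other than the steroid, thyroid hormone and Rev-erb receptors: the retinoid receptors, the PPARs, the sterol, bile acid, xenobiotic and vitamin D receptors, the RORs, and the orphan receptors of the NR2, NR4A, NR5, NR6 and HNF4 groups. They were chosen by name, matched exactly to the gene symbol of an array probe set that names 1 gene. Of 32 genes listed, 30 had such a probe set, 1 each, among 19938 genes in all, while Nr1h2 and Nr2e3 were not analysed here. Expression was measured on 8 Affymetrix mouse gene arrays, 1 per pup, at postnatal day 2, on neocortical layers II to IV cut out with a laser. The 4 control pups were Bcl11a flox/+;Emx1 IRESCre/+ and the 4 mutant pups Bcl11a flox/flox;Emx1 IRESCre/+, so that all 8 carried Cre at the Emx1 locus and at least 1 floxed allele. Cre from this locus acts in the progenitors of cortical excitatory neurons and of much of the cortical glia, but not in those of interneurons, microglia or vessels. The controls are therefore heterozygous for Bcl11a in the same lineage. Values are the deposited log2 expression values, differences are mutant minus control on that log2 scale, and a gene is said to have risen or fallen where limma's Benjamini-Hochberg adjusted p over all 19938 genes was under 0.05.

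Nuclear receptors are transcription factors that bind short DNA elements as single molecules or in pairs, and many switch their target genes on when a small lipophilic ligand fills the ligand pocket. Retinoic acid receptors (RARs) work in pairs with retinoid X receptors (RXRs), which are also the partners of PPARs, LXRs and the vitamin D receptor, while orphan receptors such as the NR4A group act with no classical ligand and are controlled by how much of them is made. In the developing cortex, Rorb is a marker of layer IV, Nr2f1 patterns cortical areas, Nr4a2 marks subplate and claustral neurons, and Nr2e1 maintains neural progenitors.

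The promoter sequences of Rarb and the 3 NR4A genes are shown first, with matches to 2 short motifs of known response elements marked. RefSeq promoters were matched by symbol for 30 of the 32 genes listed, and the 250 bases before each annotated start are considered (build GRCm38.p6). In the line for Rarb (chr14:16575477-16575726, minus strand) capitals mark the arms GTTCA and AGTTCA and the 5 bases between them, the direct repeat known as the retinoic acid response element of this gene. In those for Nr4a2 (chr2:57124004-57124253, minus strand), Nr4a3 (chr4:48045055-48045304, plus strand) and Nr4a1 (chr15:101266596-101266845, plus strand), capitals mark TGACG, the core of the cyclic AMP response element, on either strand.
Rarb: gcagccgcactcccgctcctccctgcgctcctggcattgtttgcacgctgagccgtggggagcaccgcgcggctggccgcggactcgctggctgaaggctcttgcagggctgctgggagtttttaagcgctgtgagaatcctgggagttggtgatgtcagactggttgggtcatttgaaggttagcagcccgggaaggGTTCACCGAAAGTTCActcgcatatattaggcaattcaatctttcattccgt
Nr4a2: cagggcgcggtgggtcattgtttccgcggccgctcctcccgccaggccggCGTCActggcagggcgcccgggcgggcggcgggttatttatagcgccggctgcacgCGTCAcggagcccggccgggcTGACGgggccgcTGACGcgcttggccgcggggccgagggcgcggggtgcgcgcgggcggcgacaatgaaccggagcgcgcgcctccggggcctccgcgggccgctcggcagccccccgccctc
Nr4a3: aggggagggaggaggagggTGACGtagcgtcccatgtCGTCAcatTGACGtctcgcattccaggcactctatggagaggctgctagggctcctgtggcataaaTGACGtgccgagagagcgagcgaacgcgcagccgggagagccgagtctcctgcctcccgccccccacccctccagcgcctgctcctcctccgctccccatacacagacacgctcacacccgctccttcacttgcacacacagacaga
Nr4a1: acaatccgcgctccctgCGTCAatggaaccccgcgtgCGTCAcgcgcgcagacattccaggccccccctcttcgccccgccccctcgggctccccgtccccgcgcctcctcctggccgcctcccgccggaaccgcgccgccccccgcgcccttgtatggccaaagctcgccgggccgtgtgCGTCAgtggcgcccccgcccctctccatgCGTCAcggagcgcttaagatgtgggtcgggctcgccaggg
Both strands were searched, and in these promoters no match of one motif overlapped a match of the other. The repeat in the Rarb promoter reads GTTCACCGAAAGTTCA and ends 37 bases before the start. The 2 arms with any 5 bases between them were found in 9 of 32851 promoter entries of the same length (0.0274%), among them those of Rarb and the retinoic acid hydroxylase gene Cyp26a1. TGACG was found in 17.8% of all entries and in 10 of the 45 entries of receptor genes (22.2%). Each of the 3 NR4A genes had 4 matches, and the share of all entries with 4 was not counted. A match is a string of letters and not a measured binding site, and which transcript start was used in this tissue was not analysed here.

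Bcl11a itself fell in every mutant pup, from 10.45 ± 0.13 to 8.63 ± 0.21 (SD, n = 4), a 3.52-fold drop (95% interval 3.03 to 4.10; limma adjusted p = 4.9e-07). Array medians lay between 4.83 and 4.91. Genotypes fell on opposite sides of principal component 1 (38.4% of the variance), and control 1 had the lowest array weight (0.556). Markers of excitatory neurons were well measured, with Neurod2 at 10.08 ± 0.11 in controls and 10.03 ± 0.15 in mutants. Slc17a7, their vesicular glutamate transporter, read 7.84 ± 0.60 and 7.87 ± 0.35, and Neurod6, another of their transcription factors, rose from 10.65 ± 0.16 to 11.35 ± 0.14 (SD, n = 4; limma adjusted p = 5.02e-04). Of the 6 genes of that list 1 rose and 2 fell, the transporter gene Slc17a6 (-0.51) and Emx1 (-0.49). Of 12 genes of layer II to IV neurons, the layers dissected, 7 fell and 0 rose, among them Cux1 (-0.35) and Cux2 (-1.29). The gene lists used here and below were chosen with earlier results of these data known. No batch is named in the labels.

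Among the 30 receptor genes, Rarb and Nr4a3 rose, Nr4a2 fell, and 27 did not pass the test. That is 10% of the receptor genes, beside 4.15% of all genes (2.36% rose and 1.79% fell). The median difference was 0.04 over the receptor genes and 0.02 over all genes. Of the 30 differences 9 lay below 0 (30%, beside 42.5% of all genes). Control and mutant values did not overlap for 4 receptor genes, Rarb, Nr4a2, Nr4a3 and Nr6a1 (13.3%, beside 9.25% of all genes). With limma's p-values left unadjusted, 6 of the 30 were under 0.05. For this count, here and in the lists below, the share over all genes was not counted. Of the 27 that did not pass, 24 had a 95% interval wholly between -0.5 and 0.5, and the other 3 were Rora, Nr2f1 and Nr2f2.

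**Figure D1:**
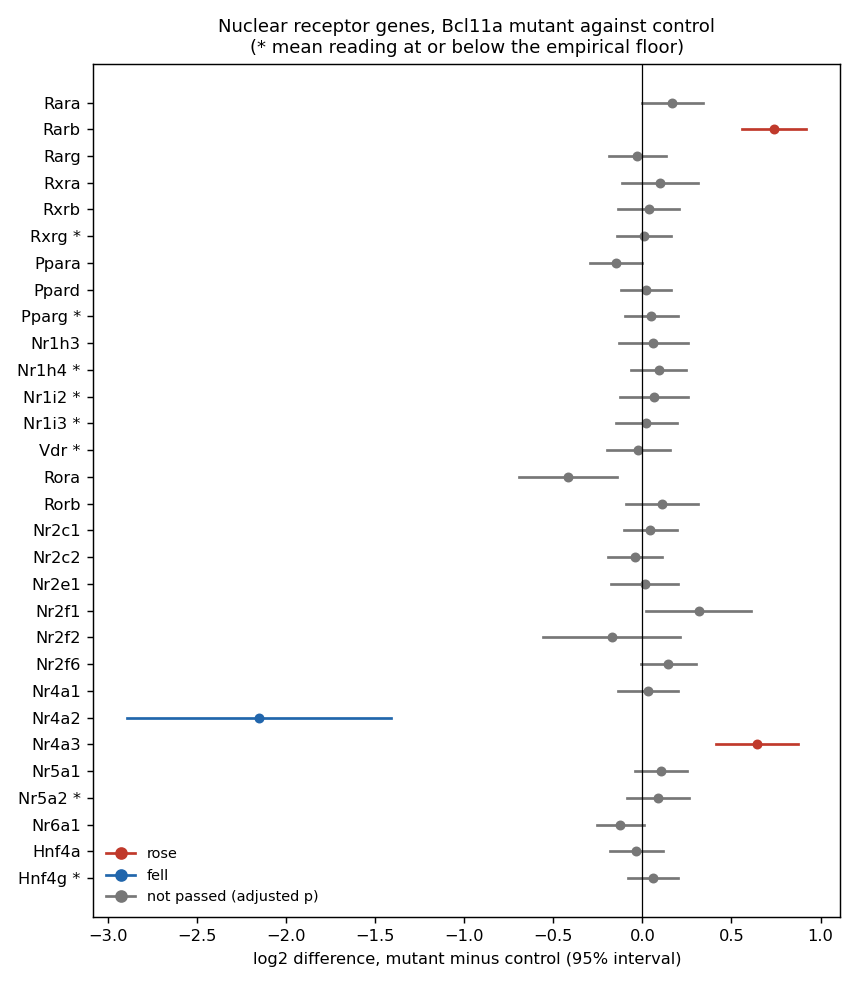
Log2 difference of each of the 30 nuclear receptor genes, mutant minus control (horizontal axis), with its 95% interval from limma; red marks a rise, blue a fall, grey genes that did not pass. Nr4a2 stands alone at -2.15, Rarb and Nr4a3 lie at 0.74 and 0.64, and the grey points lie between -0.42 and 0.32. An asterisk marks genes whose mean reading was at or below the empirical floor of 4.23.

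Of the 3 retinoic acid receptors, Rarb rose and Rara and Rarg did not pass. Rarb encodes the beta receptor, which binds retinoic acid and is itself one of the genes switched on by it. Its values were 4.76, 4.68, 4.76 and 4.91 in controls 1 to 4 and 5.33, 5.71, 5.54 and 5.50 in mutants 1 to 4. Every mutant value lay above every control value. The means were 4.78 ± 0.10 and 5.52 ± 0.15 (SD, n = 4), a 1.67-fold rise (95% interval 1.47 to 1.89; limma adjusted p = 1.48e-04). The exact two-sided permutation test gave p = 0.0286, the smallest that 4 pups against 4 can give. Rara, the widely expressed alpha receptor, read from 6.51 to 6.86 in controls and from 6.84 to 6.94 in mutants, so that the groups met at their edges (difference 0.17, adjusted p = 0.366 by limma). Rarg, the gamma receptor, read from 5.63 to 5.87 in controls and from 5.64 to 5.86 in mutants, and the ranges lay on top of one another (difference -0.03).

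Genes that make, carry, degrade or answer to retinoic acid were read beside the receptors. Among the 13 with a probe set, 2 rose and 1 fell while 10 did not pass, with a median difference of 0.05 against 0.02 over all genes. Dhrs3, which reduces retinal back to retinol and is induced by retinoic acid, had control values of 7.28, 6.84, 6.66 and 6.48 and mutant values of 7.97, 8.03, 7.88 and 7.90. The groups were far apart and the mutants close together, with a 2.19-fold rise (95% interval 1.79 to 2.66; limma adjusted p = 2.0e-04). Cyp26b1, which hydroxylates retinoic acid and so clears it, had values of 5.02, 5.44, 5.36 and 5.51 in controls and 5.66, 5.75, 5.71 and 5.81 in mutants, a difference of 0.40 (SE 0.09, limma adjusted p = 0.0311). Stra6, the membrane receptor that takes up retinol from its binding protein, fell from 5.41 ± 0.10 to 5.14 ± 0.06 (SD, n = 4; difference -0.28, limma adjusted p = 0.0388). Tgm2, a transglutaminase gene, differed by 0.12 and Crabp2, which carries retinoic acid to its receptors, by 0.03, and neither passed. Crabp2 read 4.27 ± 0.07 in controls and 4.31 ± 0.09 in mutants (SD, n = 4), near the empirical floor of 4.23. Of the 13 genes 5 had means at or below that floor (38.5%, beside 29.7% of all genes). Which genes of the list answer to retinoic acid in this tissue was not tested. Cyp26a1, whose promoter holds the same arms and spacing as that of Rarb, read 3.67 ± 0.06 and 3.72 ± 0.15 (SD, n = 4), below the empirical floor of 4.23. Cyp26b1 no longer passed when control 3 or mutant 2, 3 or 4 was left out (limma adjusted p from 0.0669 to 0.104). Stra6 no longer passed when any pup other than control 4 or mutant 1 was left out (limma adjusted p from 0.0594 to 0.115).

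The RXRs, which pair with the RARs, did not pass. Rxra read 5.29 ± 0.11 in controls and 5.39 ± 0.21 in mutants, and Rxrb 6.72 ± 0.08 and 6.75 ± 0.14 (SD, n = 4). Mutant 1 held the highest Rxra value (5.65) and mutant 4 the lowest (5.13), with all controls between them. Rxrg read from 3.95 to 4.07 in controls and from 3.84 to 4.10 in mutants, below the floor. The floor of 4.23 is the 95th percentile of the means of 1203 odorant and pheromone receptor genes, which are used in the nose, and a reading at or below it may be background. Among the receptor genes 8 of 30 (26.7%) had means at or below it, against 29.7% of all genes.

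**Figure D2:**
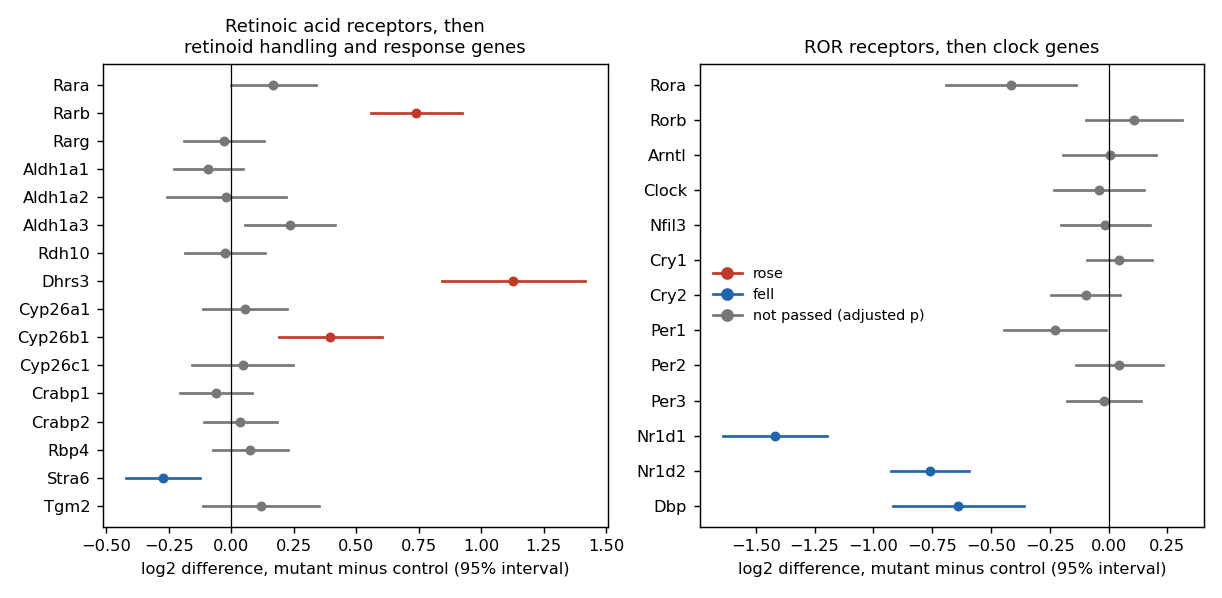
Log2 differences, mutant minus control, with 95% intervals from limma for the retinoic acid receptors with 13 retinoid genes (left) and for Rora and Rorb with 11 clock genes (right); red marks a rise, blue a fall, grey genes that did not pass. On the left Dhrs3 (1.13), Rarb (0.74) and Cyp26b1 (0.40) lie to the right of 0 and Stra6 (-0.28) to the left, and on the right Nr1d1 (-1.42), Nr1d2 (-0.76) and Dbp (-0.64) lie to the left.

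Of the 3 NR4A receptors, 1 fell, 1 rose and 1 did not pass. Nr4a2, also called Nurr1, is an orphan receptor needed for midbrain dopamine neurons and a marker of subplate and claustrum in the cortex. Its control values were 5.85, 8.15, 6.43 and 6.92, and its mutant values 4.77, 4.82, 4.66 and 4.47. Controls ranged widely, with control 2 at the top and control 1 at the bottom, whereas the 4 mutants lay within a narrow band below all of them. The means were 6.83 ± 0.98 and 4.68 ± 0.16 (SD, n = 4), a 4.45-fold fall with a 95% interval of 2.66 to 7.42 (difference -2.15, limma adjusted p = 0.00212; exact two-sided permutation p = 0.0286). The mutant mean remained above the floor of 4.23. Without control 2 the difference was -1.72 (limma adjusted p = 2.81e-04). With an intensity trend and robust variances in limma the adjusted p was 0.0705, and without variance moderation it was 0.137.

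Nr4a3, also called Nor1, is the third member of the group and, like the other two, an immediate early gene in many cell types. Its values were 5.54, 5.23, 5.32 and 5.37 in controls and 6.35, 5.91, 5.86 and 5.92 in mutants. All mutants lay above all controls, and mutant 1 stood above the other mutants. The means were 5.37 ± 0.13 and 6.01 ± 0.23 (SD, n = 4), a 1.56-fold rise (95% interval 1.33 to 1.83; limma adjusted p = 0.00262; exact two-sided permutation p = 0.0286). Without mutant 1 the difference was 0.53 (limma adjusted p = 0.00254), and without variance moderation the adjusted p was 0.0999. Nr4a1, or Nur77, had values of 5.57, 5.38, 5.26 and 5.35 in controls and 5.50, 5.42, 5.29 and 5.47 in mutants, which overlapped throughout (difference 0.03, 95% interval -0.14 to 0.20).

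Markers of subplate and claustrum, and other immediate early genes, were read on the same arrays. The tissue was cut as layers II to IV, and whether it held subplate or claustrum cells was not analysed here. Of 8 subplate and claustrum genes measured, 1 rose, 0 fell and 7 did not pass by limma (median difference 0.04). Their summed linear level ran from 521 to 617 in controls and from 667 to 721 in mutants, and without Gnb4 from 255 to 284 and from 249 to 288. Gnb4 was the 1 that rose, a G protein subunit gene named here after its value was seen (difference 0.40, limma adjusted p = 0.0277), a call lost without mutant 2, 3 or 4. The defining markers Cplx3 (4.23 ± 0.24 in controls and 4.27 ± 0.17 in mutants), Nxph4 (4.43 ± 0.26 and 4.19 ± 0.22) and Moxd1 (4.37 ± 0.11 and 4.46 ± 0.10; SD, n = 4) were at or near the floor in both groups. The mean log2 level of the 8 genes was 5.46, 5.43, 5.54 and 5.60 in controls 1 to 4, with control 2 (highest for Nr4a2) and control 1 (lowest for Nr4a2) close together. On the summed linear level control 1 was the lowest control with Gnb4 (521), and control 2 was the lowest without it (255). The part of these cells in the values of Nr4a2 was not tested. In bulk tissue, fewer cells of a type and less RNA per cell cannot be told apart. Of 16 other immediate early genes, 0 rose and 0 fell by limma, and 1 had an unadjusted p under 0.05. Their mean log2 level ran from 5.16 to 5.27 in controls and from 5.19 to 5.24 in mutants.

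**Figure D3:**
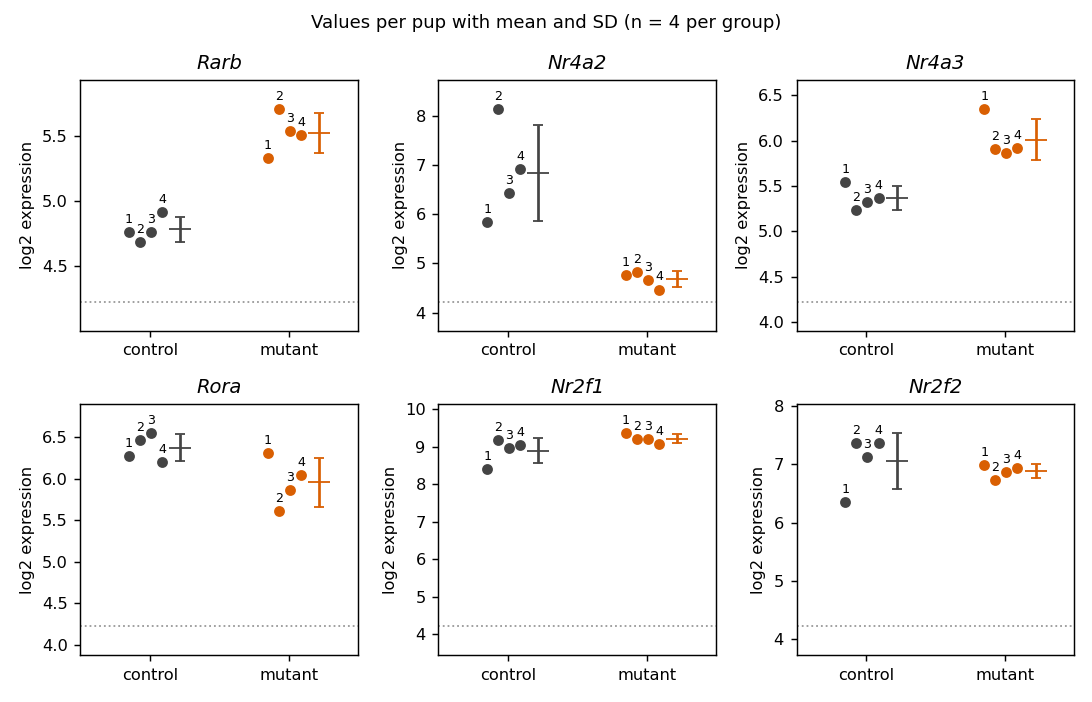
Log2 expression (vertical axis, a scale of its own for each gene) of 6 receptor genes in each control and mutant pup, numbered by replicate, with the mean and SD of 4 pups; the dotted line is the empirical floor of 4.23. Control and mutant values are separate for Rarb, Nr4a2 and Nr4a3 and overlap for Rora, Nr2f1 and Nr2f2, where control 1 is the lowest control for both COUP-TF genes.

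The RORs, which bind as single molecules to elements they share with the Rev-erb repressors, did not pass. Rora had values of 6.27, 6.47, 6.55 and 6.20 in controls and 6.30, 5.61, 5.86 and 6.05 in mutants. Mutants 2, 3 and 4 lay below all controls and mutant 1 lay among them. The difference was -0.42 (95% interval -0.69 to -0.14; limma adjusted p = 0.108; exact two-sided permutation p = 0.0857). Without mutant 1 the difference was -0.53 and passed (limma adjusted p = 0.0213). Rorb, the layer IV receptor, read from 9.75 to 9.98 in controls and from 9.81 to 10.20 in mutants, with means of 9.87 ± 0.10 and 9.98 ± 0.20 (SD, n = 4; difference 0.11, 95% interval -0.09 to 0.31, limma adjusted p = 0.711).

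Of 11 clock genes measured beside the RORs, 3 fell, 0 rose and 8 did not pass, with a median difference of -0.04. The 2 Rev-erb repressors, which oppose the RORs, were among them. Nr1d1 read 8.57, 8.10, 8.16 and 8.18 in controls and 6.72, 6.71, 6.95 and 6.96 in mutants, a 2.67-fold fall (95% interval 2.29 to 3.12; limma adjusted p = 4.24e-06). Nr1d2 fell 1.69-fold, from 6.91 ± 0.10 to 6.15 ± 0.12, and Dbp, a PAR bZIP output factor of the clock, fell 1.56-fold, from 7.21 ± 0.32 to 6.57 ± 0.11 (SD, n = 4; limma adjusted p = 6.49e-05 and 0.0112). The values of these 3 genes did not overlap between the groups, and the same 3 genes passed without any 1 pup. Of the 8 that did not pass, Arntl differed by 0.004, Nfil3 by -0.01, Clock by -0.04 and Cry1 by 0.05. Per1 had the largest difference among the 8 (-0.23). The time of day at which the pups were taken is not in the labels.

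COUP-TFs, orphan receptors that act mostly as repressors, did not pass over the 8 arrays, and for 2 of them control 1 set much of the spread. Nr2f1, or COUP-TFI, is the receptor that gives caudal and lateral identity to cortical areas. It read 8.41, 9.18, 8.98 and 9.05 in controls and 9.37, 9.20, 9.22 and 9.08 in mutants, with control 1 alone far below the rest (difference 0.32, limma adjusted p = 0.309). Without control 1 the difference was 0.15 (limma adjusted p = 0.446). Nr2f2, or COUP-TFII, is made by interneurons from the caudal ganglionic eminence and by venous endothelium. Its values were 6.36, 7.38, 7.13 and 7.37 in controls and 6.99, 6.73, 6.88 and 6.95 in mutants. Control 1 lay below all mutants and the other 3 controls above all of them. Over all arrays the difference was -0.17 (95% interval -0.56 to 0.21; limma adjusted p = 0.771), and without control 1 it was -0.41 and passed (limma adjusted p = 0.0162). Nr2f6, the third COUP-TF gene, read from 5.78 to 5.96 in controls and from 5.91 to 6.13 in mutants (difference 0.15, limma adjusted p = 0.384).

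Of 18 interneuron genes measured in the same tissue, 3 fell, 0 rose and 15 did not pass (median difference -0.19), and without control 1 there was 1 that rose. Of the 18 differences 14 lay below 0 (77.8%, beside 42.5% of all genes), and 10 genes had an unadjusted p under 0.05 by limma. The 3 that fell, named after their values were seen, were the neuropeptide gene Npy (-1.63), the transcription factor gene Dlx1 (-0.46) and the neurexophilin gene Nxph1 (-0.31). The summed linear level of the list ran from 2839 to 2901 in controls and from 2234 to 2324 in mutants, and without Npy from 2264 to 2506 and from 2062 to 2205. Calb2, the calretinin gene, was 0.86 higher and did not pass (limma adjusted p = 0.122). The list pools interneurons and was not split by origin, so it does not single out those of the caudal ganglionic eminence. Vip (0.04), Prox1 (-0.03), Adarb2 (0.12), Sp8 (-0.09) and Htr3a (-0.18) did not pass, nor did Lhx6 (-0.24) and Maf (-0.27). The defining markers Gad1, Gad2 and Slc32a1 read 7.41 ± 0.13, 6.88 ± 0.10 and 6.67 ± 0.02 in controls and 7.21 ± 0.13, 6.66 ± 0.11 and 6.51 ± 0.07 in mutants (SD, n = 4). Control 1 had the lowest mean log2 level of the interneuron list among controls (6.75, against 6.87 to 6.92 in the others). Within that list it was the lowest control for Gad1 (7.26), Gad2 (6.75) and Calb2 (5.38) and the highest for Npy (9.27) and Dlx1 (8.84). For the list of layer II to IV genes control 1 was the highest control (8.85, against 8.74 to 8.84 in the others). Control 1 was the lowest control for the list of layer V and VI genes (7.12, against 7.33 to 7.40) and for the list of excitatory neuron genes (8.59, against 8.87 to 8.96). Within the excitatory neuron list it was the lowest control for Slc17a7 (6.98), Camk2a (7.88) and Slc17a6 (8.64) and the highest for Neurod6 (10.84) and Emx1 (7.04). On the layer V and VI list every mutant (7.46 to 7.54) lay above every control. Of its 10 genes 1 rose and 1 fell. The part of these differences in the values of Nr2f1 and Nr2f2 was not tested. Of 16 cortical area patterning genes, 3 rose and 7 fell, beside 2.36% and 1.79% of all genes. The list was chosen with earlier results of these data known, so these counts are not a test of it. Tenm3, a teneurin adhesion protein gene (-1.49), the LIM-only gene Lmo3 (-1.22), the cadherin gene Cdh6 (-1.21) and the LIM-only gene Lmo4 (a 2.14-fold rise) had the largest differences.

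**Figure D4:**
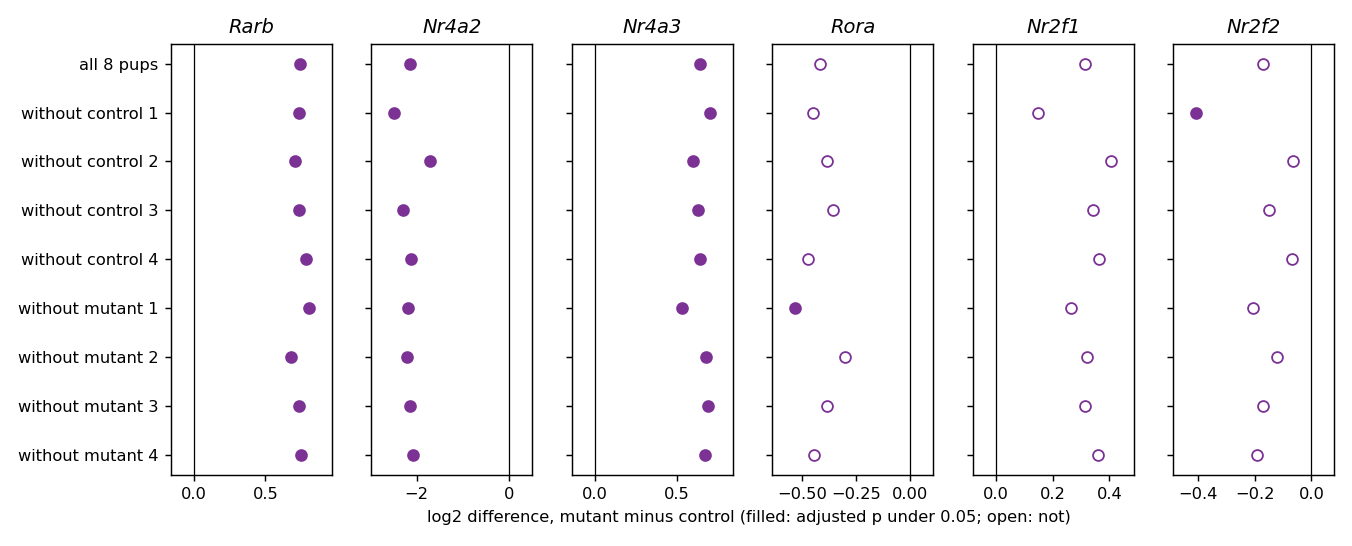
Log2 difference of 6 receptor genes, mutant minus control (horizontal axis, a scale of its own for each gene), over all 8 pups and with each pup left out in turn; filled points passed limma's adjusted p of 0.05. Rarb, Nr4a2 and Nr4a3 passed in all 9 fits, Rora passed only without mutant 1 (-0.53), Nr2f2 only without control 1 (-0.41), and Nr2f1 in none.

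The remaining NR2 receptors lay close together in the 2 groups. Nr2e1, or tailless, the receptor of neural progenitors, read 5.86 ± 0.16 in controls and 5.87 ± 0.11 in mutants (SD, n = 4; 95% interval of the difference -0.17 to 0.20). Nr2c1 and Nr2c2, the testicular receptors, differed by 0.04 and -0.04, with intervals of -0.11 to 0.19 and -0.19 to 0.11.

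Receptors for fatty acids, sterols and other lipids did not pass. Ppara, which drives fatty acid oxidation, read 4.66, 4.55, 4.51 and 4.47 in controls and 4.34, 4.49, 4.35 and 4.44 in mutants. The groups overlapped only in mutant 2 and control 4 (difference -0.15, 95% interval -0.29 to -0.00177, limma adjusted p = 0.349). Ppard, the widely expressed member, differed by 0.02 (95% interval -0.12 to 0.16), and Pparg, the receptor of fat cell differentiation, read at or below the floor in both groups. Of 13 PPAR target and fatty acid oxidation genes, 1 fell and 0 rose. This was Plin2, a lipid droplet coat protein gene (7.01 ± 0.08 to 6.49 ± 0.17, SD, n = 4; a 1.44-fold fall, limma adjusted p = 0.00257), and without control 1 there were 2 that fell. Nr1h3, the oxysterol receptor LXR alpha, read 4.65 ± 0.17 and 4.71 ± 0.12 (SD, n = 4; difference 0.06, 95% interval -0.13 to 0.26). Of 14 LXR target and sterol transport genes, 1 rose and 0 fell: Abcg1, a cholesterol exporter (6.14 ± 0.14 to 6.45 ± 0.07, SD, n = 4; difference 0.31, limma adjusted p = 0.0414), whose call was lost without any 1 pup other than control 4 (limma adjusted p from 0.0717 to 0.116). The bile acid receptor Nr1h4, the xenobiotic receptors Nr1i2 and Nr1i3 and the vitamin D receptor Vdr had means at or below the floor, with differences between -0.02 and 0.09.

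Nr6a1, the germ cell nuclear factor, which silences pluripotency genes in the embryo, was the 1 gene whose groups did not overlap and which did not pass. Controls read 5.69, 5.67, 5.62 and 5.56 and mutants 5.52, 5.54, 5.45 and 5.52. All controls lay above all mutants, but only just (difference -0.12, 95% interval -0.26 to 0.0073, limma adjusted p = 0.396; exact two-sided permutation p = 0.0286). Nr5a1, the regulator of steroid-making tissues, differed by 0.10, and Nr5a2, its liver and pancreas relative, had a mean below the floor. Hnf4a, a master factor of hepatocytes, read 5.47 ± 0.12 and 5.44 ± 0.02, and Hnf4g 3.45 ± 0.06 and 3.51 ± 0.07, the latter below the floor (SD, n = 4).

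Nuclear receptors act through coregulators, such as the coactivator Ncoa1 and the corepressor subunit Hdac3. Of 23 such coregulator genes, 0 rose, 0 fell and 23 did not pass by limma, while 3 had an unadjusted p under 0.05. Their median difference was -0.06, and 19 of 23 differences lay below 0 (82.6%, beside 42.5% of all genes). The mean log2 level of the list overlapped between the groups, with 8.20 to 8.29 in controls and 8.09 to 8.25 in mutants. Without control 1 there was 1 coregulator gene that fell.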

How the data were processed

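Per the labels, total RNA of laser-microdissected neocortex was hybridised to 1 Affymetrix mouse gene array per pup, and the submitters worked with BRB-ArrayTools. How background was corrected, arrays normalized and probes summarised, and which logarithm was taken, is not given in the sources used here. Deposited values (2.03 to 13.8) were taken as log2 expression already normalized by the authors; another base would change the folds and not the tests. Of 35556 probe sets, 21789 had 1 gene symbol in the platform annotation, 1621 several and 12146 none. The brightest probe set by mean over 8 arrays was kept for each of 19938 genes, with no filter on dim genes (999 had several). By Entrez identifier, 21698 one-symbol probe sets matched the GRCm38.p6 gene table. The array annotation names no build, so no position is given for a probe set.

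The genotypes were set against each other in limma 3.58.1 under R 4.3.3 (lmFit and eBayes on genotype, 6.91 prior degrees of freedom), two-sided, with Benjamini-Hochberg adjustment over all genes. Exact permutation tests ran over the 70 ways to choose 4 of 8 pups. The number of arrays limits the precision (median SE 0.0766). The fit was tested on simulated data.

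The members and lists were chosen with earlier results of these data known. The text names Bcl11a, every member with a probe set, and up to 4 genes past the threshold from each pathway list, largest first. From a cell type list it names the first 3 genes where called for. Emx1, Slc17a6, Camk2a, Ldb2, Ntsr1, Gnb4, Npy, Dlx1, Nxph1, Calb2, Cyp26a1, Tgm2, Crabp2, Ncoa1 and Hdac3 were named outside this rule. So were Vip, Prox1, Adarb2, Sp8, Htr3a, Lhx6, Maf, Arntl, Nfil3, Clock, Cry1 and Per1. Alternatives covered normalization, filters on dim genes, several probe sets, array weights, variance estimation, the replicate number as a block and leaving out each pup.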

Additional observations from a re-analysis of the deposited data

Results flagged for a closer look

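In 60 groups of 4 pups tested (30 genes in each genotype), 1 value stood apart from the rest of its group. Nr4a3 in mutant 1 read 6.35, against 5.92 in the next highest mutant, and this gap was 0.890 of the range of the group, above Dixon's critical ratio for 4 values. Chance flags about 1 in 20 groups. Without mutant 1 the rise of Nr4a3 was 0.53 on the log2 scale and passed (limma adjusted p = 0.00254).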

How the results depend on the processing

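The rise of Rarb kept its call in each alternative run (0.68 to 0.80, limma adjusted p from 8.34e-05 to 0.0296), but Rarb was not among the genes tested without the dimmest 50%, where 1 member rose. Nr4a2 kept its direction (-2.48 to -1.72) and lost its call with an intensity trend and robust variances and without moderation, where 0 members fell. Nr4a3 (0.53 to 0.70) lost its call without moderation, where 1 member rose. Leaving out 1 pup, 2 members rose in each fit and 1 to 2 fell, the second being Nr2f2 without control 1 or Rora without mutant 1. Centring arrays on their medians gave 386 genes higher and 459 lower, against 470 and 357. In 751 further fits of single genes, 684 kept direction and side of the threshold, 34 lost it, 2 gained it and 31 changed sign.

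The changes of sign concerned 11 members with differences near 0. With quantile normalization Nr2e1 was -0.0196, Nr4a1 -0.0106, Ppard -0.0101 and Rxrg -0.00855. With centred arrays Nr1i3 was -0.0140, Nr2e1 -0.0228, Nr4a1 -0.00385, Ppard -0.0146, Rxrb -0.000236 and Rxrg -0.0268, and with array weights Nr2e1 was -0.0135 and Vdr 0.00479. Leaving out 1 pup, Hnf4a ran from -0.0826 to 0.00262, Nr1h3 from -0.00619 to 0.129, Nr1i3 from -0.0214 to 0.0712, Nr2c2 from -0.0754 to 0.0108, Nr2e1 from -0.0564 to 0.0604, Nr4a1 from -0.0130 to 0.0909, Ppard from -0.0115 to 0.0485, Rarg from -0.0781 to 0.0101, Rxrb from -0.0220 to 0.0880, Rxrg from -0.0261 to 0.0607 and Vdr from -0.0896 to 0.0304. The cause was not tested.

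Counts in the lists moved as follows. Of retinoid genes, 1 rose with quantile normalization or centring and 0 without moderation, and 0 fell with the trend, without moderation or without the dimmest 50% (1 to 2 rose and 0 to 1 fell leaving out 1 pup). Of LXR target genes, 0 rose with centring, array weights, the trend, no moderation or the block (0 to 1 leaving out 1 pup). Of PPAR target genes, 2 fell with quantile normalization or array weights and 0 without moderation (1 to 2). Of coregulators, 1 fell with array weights, the mean of probe sets, the block or without the dimmest 50% (0 to 1). Of subplate genes, 0 rose with centring or without moderation (0 to 1). Of interneuron genes, 5 fell with centring or without the dimmest 50% and 1 without moderation (2 to 4 fell and 0 to 1 rose leaving out 1 pup). Of area genes, 4 fell and 1 rose without moderation.

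The labels do not say that a replicate number marks a shared litter or batch, and the deviations of same-numbered pups correlated across genes by 0.109, 0.0558, 0.295 and 0.149. Because 1 of these was under 0.1, the numbers were not taken as pairs, although 6 of 8 arrays correlated best with their own number, a hint of pairing from the data and not from the design. With the replicate number as a block, 2 members rose and 1 fell, as without it, and 565 genes of all rose and 422 fell. Depth of signal limits the 8 members at or below the floor.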

Other observations

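The spread between control pups was unusual for 3 of the receptor genes. The SD over the 4 controls was 0.98 for Nr4a2, 0.48 for Nr2f2 and 0.34 for Nr2f1, at percentiles 99.97, 99.72 and 98.96 of all genes, whose median was 0.10. In the 4 mutants the SDs of the same genes were 0.16, 0.11 and 0.12, at percentiles 82.1, 60.0 and 63.1. Control 1 was lowest for all 3, while control 2 alone was far above the others for Nr4a2 (8.15) and close to control 4 for Nr2f2 (7.38 and 7.37). Among mutants the wide genes were Rora, with an SD of 0.29 at percentile 99.05, and Nr4a3, with 0.23 at percentile 96.5. Whether the spread itself differed between genotypes was not tested.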
